A study of Mus musculus with 9 samples.

Results

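The 8 genes described here, *Gcg*, *Emilin3*, *Tmprss11e*, *Ceacam10*, *Dcst1*, *Actn3*, *Tph1* and *Ano3*, were chosen by symbol as present in the lenses of 1 genotype and near absent in those of the other, where some were low and not at 0. They are 8 of the 55416 gene identifiers counted, and all 8 were among the 14903 genes with enough counts to be tested. A gene that is high in every library of a genotype passes such a filter through that genotype, so nothing is read from the 8 having passed. Because the counts of these libraries chose the genes, their levels by genotype are given as a description and without a test. In 6 genes (*Gcg*, *Emilin3*, *Tmprss11e*, *Ceacam10*, *Dcst1* and *Actn3*) the null lens was the low genotype, and in 2 (*Tph1* and *Ano3*) it was the wildtype lens.

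RNA was sequenced from whole lenses of mouse embryos at E16.5, a day of gestation counted from the mating plug. The 4 *Atf4* null libraries came from embryos homozygous for the Atf4tm1Tow allele, in which a neomycin cassette replaces the coding sequence, and the 5 wildtype libraries came from embryos of the same heterozygous intercrosses. All mice were on a mixed C57Bl/6/129 background, no agent was given, and each library holds RNA from the pair of lenses of a single embryo. ATF4 is missing from every cell of such an embryo and not from the lens alone, and the colony was not genotyped for the *Bfsp2* deletion that 129 mice carry. In RNA of a whole lens, fewer cells of a type and less RNA per cell cannot be told apart.

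ATF4 is a basic leucine zipper transcription factor whose translation rises when the initiation factor eIF2α is phosphorylated, as happens when amino acids run short or proteins misfold in the endoplasmic reticulum. It binds DNA with partners of the C/EBP family, and its best known targets make, import and charge amino acids. The lens is an avascular tissue made of a single layer of epithelium over a mass of elongated fiber cells. None of the 8 genes belongs to the amino acid program: they encode a peptide hormone precursor, a matrix glycoprotein, a membrane protease, an adhesion molecule, a fusion-related membrane protein, a muscle actinin, a serotonin enzyme and an anoctamin.

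The upstream sequences of these genes are shown because ATF4 and the other factors in question act on promoters. The RefSeq promoter table (GRCm38.p6, 250 bases before to 50 bases after each start) held 8 entries for 5 of the genes, *Gcg*, *Ceacam10*, *Dcst1*, *Tph1* and *Ano3*, and each entry matched GRCm39 once without a mismatch. *Emilin3*, *Tmprss11e* and *Actn3* are named only. The stretches below are written 5′ to 3′ on the strand of the gene, with GRCm39 coordinates, and capitals mark the motifs searched for. The 250 bases before the *Gcg* start lie on the minus strand at chr2:62313998-62314247. Those before the *Ceacam10* start lie on the plus strand at chr7:24476342-24476591. For *Dcst1*, the 62 bases that reach back to an annotated exon of *Dcst2* on the other strand lie at chr3:89272561-89272622, minus strand.
Gcg: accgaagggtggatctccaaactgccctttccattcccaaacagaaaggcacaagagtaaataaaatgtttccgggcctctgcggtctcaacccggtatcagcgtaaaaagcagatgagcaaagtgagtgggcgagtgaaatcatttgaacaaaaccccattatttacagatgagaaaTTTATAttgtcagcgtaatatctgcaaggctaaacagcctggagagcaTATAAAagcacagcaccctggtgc
Ceacam10: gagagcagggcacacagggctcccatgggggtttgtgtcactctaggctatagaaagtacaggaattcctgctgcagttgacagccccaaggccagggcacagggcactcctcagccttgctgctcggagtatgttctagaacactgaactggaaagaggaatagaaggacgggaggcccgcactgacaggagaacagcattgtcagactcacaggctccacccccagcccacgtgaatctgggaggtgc
Dcst1: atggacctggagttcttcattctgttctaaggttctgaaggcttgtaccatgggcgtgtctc

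The next stretches belong to the genes that were higher in the null lens. *Tph1* has 2 RefSeq starts, and the upstream start, with the 246 bases before the annotated gene, lies on the minus strand at chr7:46321966-46322211. The other *Tph1* start lies 5164 bases into the annotated gene, and only 30 bases around 2 of its motifs are shown, at chr7:46316835-46316864. For *Ano3*, 30 bases around the motif of the entry nearest the annotated gene start are shown, at chr2:110780620-110780649 on the minus strand.
Tph1 upstream start: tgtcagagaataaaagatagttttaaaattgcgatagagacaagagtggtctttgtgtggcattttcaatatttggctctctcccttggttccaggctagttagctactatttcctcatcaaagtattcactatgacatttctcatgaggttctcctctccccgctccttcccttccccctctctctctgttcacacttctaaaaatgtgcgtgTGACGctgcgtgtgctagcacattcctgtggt
Tph1 inner start: cgcccATTGGccgttcTGACGatgcgcttc
Ano3: cccacgttgctaTGACGatgagactggcgg

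Motifs were searched on both strands of the full 300 bases. The core of the element that ATF4 binds with a C/EBP partner, searched as TGATGNAA, was in none of the 8 entries and in 3.97% of all 32851 promoters. The cAMP response element TGACGTCA was in none of the 8 and in 1.79% of all promoters. Its first 5 letters, TGACG, which also match inside it, were in 20.8% of all promoters, in 1 *Ano3* entry (48 bases before the start), and in both *Tph1* entries (36 bases before the upstream start, and 21, 47 and 248 bases before the inner start). A TATAAA, found in 13.6% of promoters, began 24 bases before the *Gcg* start, with another on the opposite strand at 72 bases, and 175 bases before the start of the other *Ano3* entry. A CCAAT, found in 37.4% of promoters, lay on the opposite strand 58 bases before the inner *Tph1* start. TGCTGA, the letters of a Maf half-element, was in the same *Ano3* entry as the TATAAA and in 19.5% of all promoters. A p53 half-element was in none of the 8 and in 8.36% of all promoters. The inner *Tph1* promoter had an observed to expected CpG ratio of 0.77, above 76.2% of promoters, and the median over all promoters was 0.38. A match of letters describes these windows and shows no binding.

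Gene counts ran from 7440807 to 8906996 per library. *Atf4*, which checks the labels, was at 119 to 155 CPM (the count per library scaled to a common depth with TMM factors) in the wildtype libraries and at 0.582 to 10.6 CPM in the null libraries. The labels' whole lens was borne out by fiber cell markers, whose 10 genes summed to 45140 to 108310 CPM in the null and 59879 to 110936 CPM in the wildtype libraries, with *Lim2* listed at 0 in all of them. Wildtype replicate 5 stood apart: 8 mesenchyme markers summed to 14434 CPM there against 243 to 267 in the other wildtype and 211 to 554 in the null libraries, and 12 skeletal muscle markers to 9777 CPM against 20.2 to 42.7 and 30.1 to 122. The titles of the wildtype samples name another wildtype library than the one their counts are filed under, so replicate numbers within that genotype are uncertain. Means are given ± SD over the 5 wildtype or the 4 null libraries.

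*Gcg* (ENSMUSG00000000394, chr2:62304873-62313997, minus strand, 6 exons) encodes proglucagon, the precursor that endocrine cells cut into glucagon and the glucagon-like peptides. It had 230, 246, 277, 180 and 192 counts in wildtype replicates 1 to 5 and 11, 12, 8 and 24 counts in null replicates 1 to 4. The genotypes did not overlap, and null replicate 4 was the highest of the null libraries. The level was 27.5 ± 5.65 CPM (SD, n = 5) in wildtype lenses and 1.73 ± 1.2 CPM (SD, n = 4) in those without ATF4, a ratio of means of 15.9, or 16.9 without wildtype replicate 5. Without null replicate 4 the null level was 1.14 CPM and the ratio 24.2. Per length, wildtype *Gcg* stood at 17.9 FPKM, above 90.2% of the genes tested and the highest of the 8 genes. Its coefficient of variation in wildtype lenses was 20.6%, where counting alone gives 6.67%.

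*Emilin3* (ENSMUSG00000050700, chr2:160747853-160754264, minus strand, 4 exons) encodes a secreted glycoprotein of the elastin microfibril interfacer family. It had 374, 348, 392, 295 and 801 counts in the wildtype libraries and 29, 24, 8 and 21 in the null libraries. Wildtype replicate 5 was higher than the other 4 wildtype libraries and null replicate 3 lower than the other 3 null libraries, and the genotypes did not overlap. The level was 52.5 ± 19.1 CPM (SD, n = 5) in wildtype lenses and 2.43 ± 1.04 CPM (SD, n = 4) in those without ATF4, a ratio of 21.6. Without wildtype replicate 5, the library rich in mesenchyme and muscle transcripts, the wildtype level was 44.2 ± 5.2 CPM (SD, n = 4) and the ratio 18.2. The share of those transcripts in the *Emilin3* level of that library was not tested. Of the 8 mesenchyme markers, all tested, *Pdgfra* was the one called by the quasi-likelihood test, DESeq2 or exactTest, as lower in null lenses. Without wildtype replicate 5, 7 were tested, and *Col1a1*, *Col1a2*, *Col3a1*, *Dcn*, *Lum* and *Postn* were called higher in null lenses, with *Pdgfra* still lower (median log2 fold change -2.75 with that library and 2.65 without it). Wildtype replicate 5 has no null library of its number, so a fit with a replicate block takes it out of the genotype contrast too. In that fit the same 7 of 8 were called in the same directions (median 2.53). *Emilin3* was lower in null lenses with and without that library, and the part of mesenchyme in its level was not tested. Per length it was the second of the genes, at 12.1 FPKM in wildtype lenses.

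*Tmprss11e* (ENSMUSG00000054537, chr5:86853045-86893674, minus strand, 10 exons) encodes a serine protease anchored in the plasma membrane of epithelial cells. Wildtype replicates 1 to 5 held 246, 239, 241, 131 and 95 counts, and null replicates 1 to 4 held 2, 10, 5 and 5. Wildtype replicates 4 and 5 were lower than the other 3, and each null library was far below them. The level was 23.5 ± 9.57 CPM (SD, n = 5) against 0.669 ± 0.416 CPM (SD, n = 4), a ratio of 35.2, the largest of the 4 genes that had more than 3 counts in a library of their lower genotype. Without wildtype replicate 5 the ratio was 40.2. Markers of surface ectoderm and cornea, epithelia that lie next to the lens, summed to 6.79 to 29.8 CPM in wildtype and 12.4 to 25.2 CPM in null libraries, with *Dsg3* at 0 in all 9.

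*Ceacam10* (ENSMUSG00000054169, chr7:24476598-24484082, plus strand, 4 exons) belongs to the carcinoembryonic antigen family of immunoglobulin-like adhesion molecules. Its counts were 94, 54, 65, 56 and 37 in wildtype and 0, 0, 0 and 1 in null libraries, so that a single count separates the null lenses from none. The wildtype level was 7.56 ± 2.94 CPM (SD, n = 5). Against a floor of 3 counts per library, which is 0.356 CPM on average over the null libraries, *Ceacam10* was at least 21.2-fold lower in null lenses, and at least 18.1-fold lower without its highest wildtype library. Floors of this kind cover counting error only.

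*Dcst1* (ENSMUSG00000042672, chr3:89257526-89272560, minus strand, 16 exons) encodes a membrane protein with a DC-STAMP domain, of the family known from the fusion of cells. It had 109, 29, 40, 40 and 40 counts in wildtype and 0 counts in each of the 4 null libraries. Wildtype replicate 1 was 14.0 CPM and the other 4 lay between 3.58 and 5.06 CPM. *Dcst1* was at least 17.9-fold lower in null lenses against the same floor, and at least 12.5-fold lower without wildtype replicate 1. At 1.22 FPKM it was a low transcript even in wildtype lenses, above 24.9% of the genes tested.

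*Actn3* (ENSMUSG00000006457, chr19:4911215-4928529, minus strand, 21 exons) encodes the α-actinin of fast skeletal muscle fibers, which crosslinks actin at the Z disc. It had 82, 66, 49, 45 and 94 counts in wildtype and 17, 1, 20 and 1 in null libraries. Null replicates 2 and 4 held 1 count each, under the floor of 3 counts, while null replicates 1 and 3 were at 1.69 and 2.19 CPM. The level was 8.1 ± 2.22 CPM (SD, n = 5) in wildtype lenses and 1.04 ± 1.07 CPM (SD, n = 4) in those without ATF4, a ratio of 7.8, the smallest of the 8. The ratio ran from 6.02 to 12.4 as each library was left out, and the highest value was that without null replicate 3. Wildtype replicate 5, with the muscle transcripts, was at 10.1 CPM and wildtype replicate 1, with the fewest, at 10.5 CPM. In null replicates 1 to 4 the muscle markers summed to 122, 42.0, 47.4 and 30.1 CPM, highest in null replicates 1 and 3. The part of muscle transcripts in the *Actn3* level was not tested.

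*Tph1* (ENSMUSG00000040046, chr7:46294065-46321965, minus strand, 11 exons) encodes the tryptophan hydroxylase that carries out the first and rate-limiting step of serotonin synthesis outside the nervous system. It had no count in any of the 5 wildtype libraries, and 19, 28, 82 and 222 counts in null replicates 1 to 4. Null replicate 4 alone held more counts than the other 3 together, and the null libraries ran from 1.89 to 32.3 CPM, with a mean of 11.6 ± 14.1 CPM (SD, n = 4). Against a floor of 3 counts per wildtype library (0.365 CPM), *Tph1* was at least 31.9-fold higher in null lenses and at least 13.0-fold higher without null replicate 4. Its coefficient of variation among null libraries was 121%, where counting alone gives 10.7%.

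*Ano3* (ENSMUSG00000074968, chr2:110485546-110781268, minus strand, 27 exons) encodes an anoctamin, a family of membrane proteins that includes calcium-activated chloride channels and lipid scramblases. Its wildtype counts were 0, 0, 2, 0 and 2, and its null counts 80, 38, 93 and 56. It ran from 4.56 to 10.2 CPM in the 4 null lenses, a narrower range than that of *Tph1*, with a mean of 7.72 ± 2.34 CPM (SD, n = 4). Its coefficient of variation there was 30.3%, where counting alone gives 12.2%. It was at least 21.1-fold higher in null lenses, and at least 18.9-fold without its highest library. Per length it was a low transcript, at 1.03 FPKM, above 22.4% of the genes tested.

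**Figure D1:**
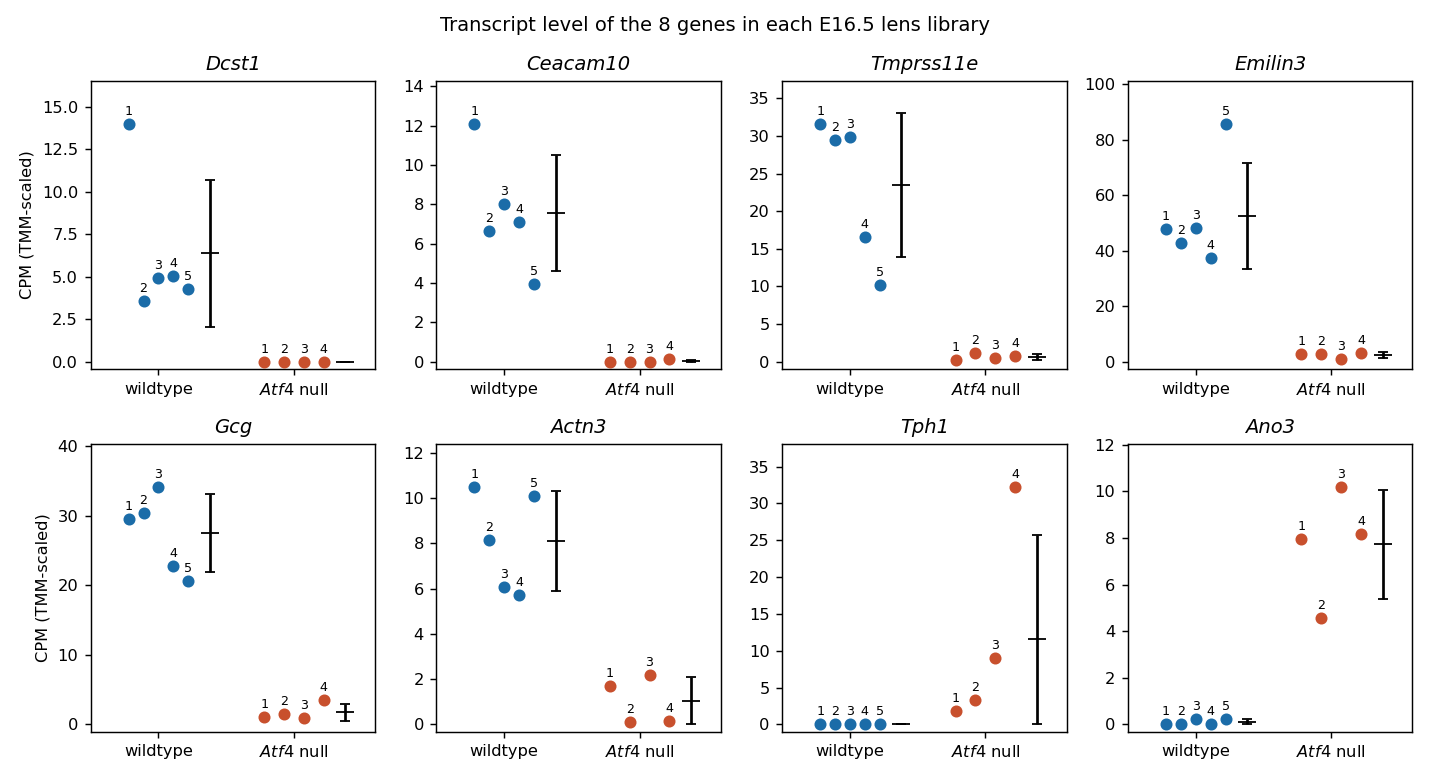
TMM-scaled CPM (vertical axis, 1 scale per panel) of the 8 genes in each library, wildtype in blue and *Atf4* null in red, with the replicate number above each point and bars for mean ± SD. In every panel the 2 genotypes are apart, and the coefficient of variation within the higher genotype is largest for *Tph1* (121%), where null replicate 4 is at 32.3 CPM and the other null libraries are at 1.89 to 8.99 CPM.

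The order of the levels per length, in the genotype where each gene is high, was *Gcg* (17.9 FPKM), *Emilin3* (12.1), *Tmprss11e* (6.89), *Ceacam10* (4.95), *Tph1* (1.87), *Actn3* (1.6), *Dcst1* (1.22) and *Ano3* (1.03). The SDs were 3.67, 4.4, 2.8, 1.92, 2.26, 0.44, 0.821 and 0.312 FPKM in the same order, so the ranges of mean ± SD overlapped for every pair of neighbours. The place of *Tph1* rested on null replicate 4, without which its level was 0.761 FPKM, below the mean of *Ano3*. That of *Dcst1* rested on wildtype replicate 1, without which it was at 0.852 FPKM, also below *Ano3*. *Atf4* itself, at 58.0 FPKM in wildtype lenses, was above all 8. The genes lie on chromosomes 2, 3, 5, 7 and 19, and none on chromosome 15, where *Atf4* lies. Their coding sequences were compared with those of their families, since near-identical copies would share reads. The longest stretch shared with a relative was 51 bases (*Actn3* with *Actn2*), followed by 46 (*Ceacam10* with *Ceacam1*) and 45 (*Ceacam10* with *Ceacam2*). Reads in those stretches may not be assignable to 1 gene.

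Across all 14903 genes tested, the CPM of the genotypes did not overlap for 832 genes that were lower in null lenses (5.58%) and 693 that were higher (4.65%), 10.2% of the genes tested in all, and the 8 genes, chosen on this contrast, are among them. To describe how wide the gap was, the lowest library of the higher genotype was divided by the highest library of the lower genotype, with each value set to at least 3 counts. This gap exceeded 4 for 19 lower genes (0.127%) and 5 higher genes (0.0336%). Among lower genes, with all libraries, the gap was 12.2 for *Emilin3*, 11.2 for *Atf4*, 9.07 for *Ceacam10*, 8.48 for *Tmprss11e*, 8.19 for *Dcst1* and 5.88 for *Gcg*. Single libraries set these values and their order. Without wildtype replicate 5 the gap was 15.3 for *Ceacam10* and 13.8 for *Tmprss11e*, both above *Emilin3* at 12.2. Without null replicate 4 that of *Gcg* was 14.3, against 12.9 for *Emilin3*, and without null replicate 2 that of *Tmprss11e* was 14.0. With a floor of 1 count in place of 3, *Ceacam10* was at 27.2 and *Dcst1* at 24.6. *Actn3* was at rank 58 with a gap of 2.6, and at 2.31 to 3.36 over the same alternatives it had the smallest gap of the 8 in each. The nearest genes that are not among the 8 were *Pdgfra*, a growth factor receptor of mesenchyme and lens epithelium, at 6.85 and *Cdh1*, the epithelial cadherin, at 6.28. Among higher genes, with all libraries, *Ano3* was at 11.8 (20.7 without null replicate 2, 18.5 with a floor of 1 count) and *Tph1* at 4.92 (8.72 without null replicate 1, 14.8 with a floor of 1 count), the latter between *Phlda3*, a p53 target, at 5.01 and *Ddit3*, which encodes the stress factor CHOP, at 4.24. *Krt19*, a keratin of simple epithelia, followed at 4.0.

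**Figure D2:**
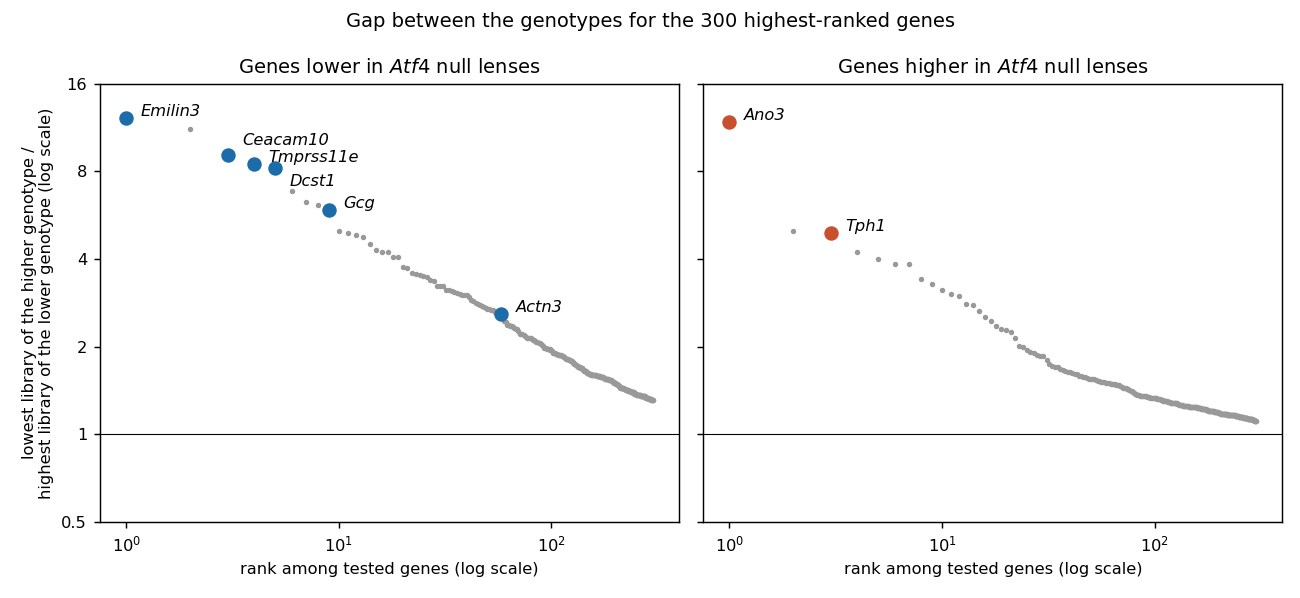
Gap between the genotypes (vertical axis, log scale: lowest library of the higher genotype over highest library of the lower genotype) against rank (horizontal axis, log scale) for the 300 highest-ranked genes in each direction, with the 8 genes named. With all libraries and a floor of 3 counts, *Emilin3* and *Ano3* come first in their directions, at 12.2 and 11.8, an order that for *Emilin3* changes without wildtype replicate 5, null replicate 2 or null replicate 4, and *Actn3* lies far down the curve at 2.6.

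A stricter description asks for at most 3 counts in each library of 1 genotype and at least 10 in each library of the other. By it, 6 genes were near absent from null lenses (*Dcst1*, *Ceacam10*, *Ccbe1*, *Clic5*, *Klk9* and *Gm12829*) and 4 from wildtype lenses (*Tph1*, *Ano3*, *Egr3* and *H2-Eb1*). The genes in these lists that are not among the 8 were named after their values had been seen. Of the genes tested, *Dcst1* was the only one with 0 counts in all null libraries and at least 10 in each wildtype library, and *Tph1* the only one with the reverse pattern. *Gcg*, *Emilin3*, *Tmprss11e* and *Actn3* had up to 24, 29, 10 and 20 counts in a null library and were low there, not absent. Per length, *Gcg* in null lenses (1.12 FPKM) was above *Ano3* in the same lenses (1.03 FPKM), the genotype where *Ano3* is high.

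The profiles of the genes over the 9 libraries were compared by their overlap, the sum over libraries of the smaller of 2 genes' shares of their own total CPM, in percent. Among the 6 lower genes, the pair most alike was *Tmprss11e* and *Gcg* (89.7%), and the pair least alike *Dcst1* and *Emilin3* (71.5%), whose high libraries were wildtype replicates 1 and 5. *Tph1* and *Ano3* overlapped by 56.6%. Of the genes outside the 8, those most like *Gcg* were *Cdh1* (93.4%) and *Atf4* (92.5%), and those most like *Emilin3* were *Pdgfra* (90.4%) and *Tppp3* (89.0%). For *Tmprss11e* they were *Uox* (90.7%) and *Pcsk2os2* (90.3%), for *Ceacam10* *Zfyve28* (91.3%) and *Tafa4* (91.1%), for *Dcst1* *Hrg* (85.2%) and *Gm48758* (85.2%), and for *Actn3* *Gm9930* (93.2%) and *Lama3* (91.5%). *Tph1* was most like *Cacna1i* (87.1%) and then *Krt19* (70.5%), and *Ano3* most like *Gm42808* (89.0%) and *Nr4a3* (87.2%). All of these percentages share the same 9 libraries, whose counts also chose the genes, and are a description. High overlap among the 6 lower genes, and with other genes that were lower in null lenses, follows from that choice.

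Markers of other cells were read beside the genes whose known sites of expression lie outside the lens. Retina and neuron markers, 12 genes, summed to 883, 465, 551 and 279 CPM in null replicates 1 to 4 and to 166, 206, 230, 272 and 277 CPM in the wildtype libraries, and 4 of them, with *Atoh7*, *Pou4f2* and *Rax* among these, were called higher in null lenses (adjusted p below 0.05), as 2.23% of all genes were, and 6 without null replicate 4. *Ano3* and *Tph1* were higher in the same genotype as this list, and its part in their levels was not tested. Within the null lenses the library with the lowest sum, null replicate 4, held the highest *Tph1* level, and its *Ano3* level was 8.15 CPM. Mast cells, which use *Tph1*, are defined here by 8 genes, of which *Fcer1a*, *Mcpt4* and *Tpsab1* were at 0 in all libraries, and their sum was 14.4, 11.8, 9.1 and 1.6 CPM in null replicates 1 to 4 against 7.77 to 34.9 CPM in wildtype. Null replicate 4 held the lowest sum, and the part of mast cells in the *Tph1* level was not tested. Neuroendocrine markers, 8 genes, summed to 150, 65.5, 79.9 and 48.0 CPM in null and to 28.8 to 55.9 CPM in wildtype libraries. *Gcg*, a transcript of such cells, was higher in wildtype, and the part of these cells in its level was not tested. Lens epithelium markers, 8 genes, summed to 899 to 1147 CPM in null and to 1100 to 1809 CPM in wildtype libraries, lowest in wildtype replicate 5, and 4 of the 8 were called lower, as 3.67% of all genes were. That number was 2 (*Cdh1* and *Foxe3*) without wildtype replicate 3 and 3 or 4 in the other alternatives. *Gcg* and the other 5 lower genes were low in the same genotype as this list, and its part in their levels was not tested.

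**Figure D3:**
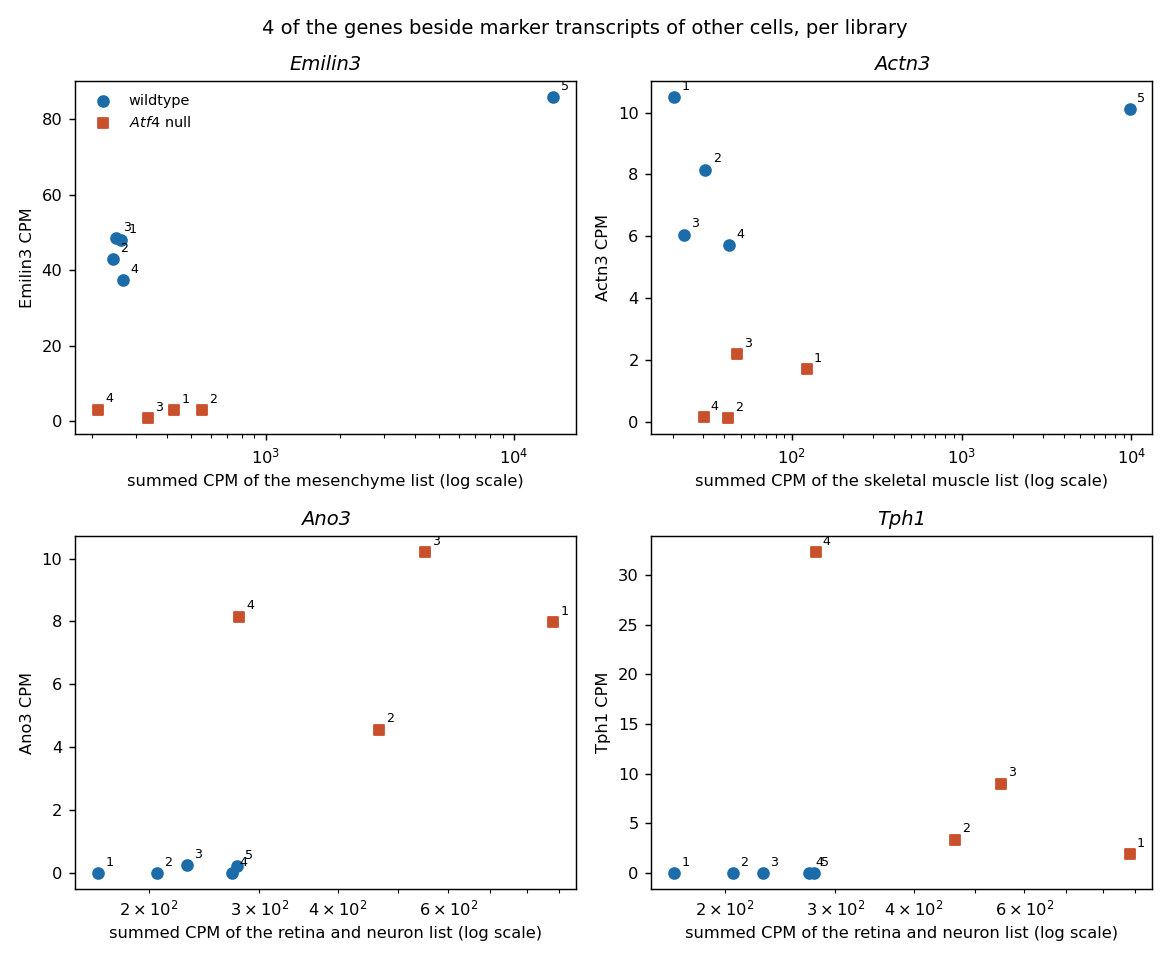
CPM of *Emilin3*, *Actn3*, *Ano3* and *Tph1* in each library (vertical axes) against the summed CPM of a marker list of other cells (horizontal axes, log scale), wildtype as blue circles and *Atf4* null as red squares, with replicate numbers. Wildtype replicate 5 lies at 14434 CPM of mesenchyme and 9777 CPM of muscle markers, and it is the highest library for *Emilin3* but not for *Actn3*. The part of these lists in the levels was not tested.

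The relatives of the 8 genes, by family or by pathway, were listed from general knowledge and were compared by genotype. Of 152 relatives found in the annotation, 67 were tested, and 0 were higher and 6 lower in null lenses, which is 8.96% called (quasi-likelihood test of edgeR, Benjamini-Hochberg adjusted over all genes). Over all genes tested, 5.9% were called, 2.23% as higher and 3.67% as lower. The median log2 fold change of the 67 was -0.12 and that of all genes 0.001. Most relatives of the 8 genes did not pass the test, which holds for most of all genes tested too.

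Among the called relatives, the largest fall was that of *Ceacam2*, of the carcinoembryonic antigen family. Of the 15 genes of that family found, 2 were tested. *Ceacam2*, a close relative of *Ceacam10*, was at 19.8, 24.2, 12.8, 18.7 and 8.78 CPM in wildtype and at 0.299, 2.04, 0.219 and 1.89 CPM in null libraries. It fell by 3.95 on the log2 scale (SE 0.6, adjusted p = 0.0016), with no overlap between genotypes, and it lies 731385 bases from *Ceacam10* on chromosome 7. *Ceacam1* was at 1.46 ± 1.57 CPM in wildtype and 1.32 ± 1.3 CPM in null lenses (log2 fold change -0.13, SE 1.07, adjusted p = 0.969). Since *Ceacam2* and *Ceacam10* share stretches of sequence, a part of their reads may be uncertain.

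Among the EMILIN, multimerin and elastic fiber genes, 19 were tested, 3 fell and none was called higher. They were *Loxl1*, a lysyl oxidase-like enzyme that crosslinks elastin, *Emilin2* and *Mfap2*, a microfibril protein. *Loxl1* was at 152, 131, 132, 118 and 149 CPM in wildtype and 49.8, 43.3, 57.2 and 50.4 CPM in null libraries, a fall of 1.44 (log2, SE 0.12, adjusted p = 2.96e-05). *Emilin2* was at 38.2 ± 8.15 CPM in wildtype and 11.9 ± 4.69 CPM in null lenses (log2 fold change -1.68, SE 0.27, adjusted p = 0.00215). *Mfap2* was at 87.4 ± 16.2 and 51.2 ± 6.32 CPM (log2 fold change -0.77, SE 0.16, adjusted p = 0.00974). All 3 passed without wildtype replicate 5 as well. The median of the list did turn, from -0.84 with that library to 0.22 without it, and *Eln*, the elastin gene, was at 436 CPM there and at 0.128 to 3.54 CPM in the other wildtype libraries.

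Of the type II membrane serine proteases, 4 were tested and *Tmprss5* was lower, at 24.8 ± 8.33 CPM in wildtype and 6.59 ± 3.6 CPM in null lenses (log2 fold change -1.91, SE 0.43, adjusted p = 0.0198). Its adjusted p was 0.0538 without wildtype replicate 1. Of the DC-STAMP and sperm-egg fusion genes, 3 were tested and *Spaca6*, a sperm membrane protein needed for fusion with the egg, was lower, at 145 ± 5.52 CPM in wildtype and 97.5 ± 18.4 CPM in null lenses (log2 fold change -0.57, SE 0.13, adjusted p = 0.0183). It did not pass with scaling by library size (adjusted p = 0.0965) or without null replicate 3 (adjusted p = 0.0639). *Dcst2*, the paired gene of *Dcst1*, had 24 counts over the 9 libraries and was not tested.

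Around *Gcg*, 5 genes of proglucagon processing, related peptides and their receptors were tested and 0 were called by edgeR's quasi-likelihood test, with 1 at an unadjusted p below 0.05. DESeq2 called 1, *Cpe*, the carboxypeptidase that trims peptide hormones, and exactTest 0. The quasi-likelihood test also called *Cpe* as lower without wildtype replicate 5 and with a replicate block, which takes the same library out of the contrast. That test did so too without null replicate 4, with a minimum of 10 counts in every library and in a robust fit. *Cpe* was at 127 ± 7.85 CPM in wildtype and 90.8 ± 18.8 CPM in null lenses (log2 fold change -0.48, SE 0.14, adjusted p = 0.0592). The protease that releases glucagon, *Pcsk2*, was at 0.958 ± 0.329 CPM in wildtype and 1.58 ± 1.23 CPM in null lenses. The protease of the glucagon-like peptides, *Pcsk1*, had 13 counts in all, the glucagon receptor *Gcgr* had 22, and *Glp1r* had 0. Of 7 transcription factors known at the proglucagon promoter, 0 were called, with 2 at an unadjusted p below 0.05, and DESeq2 and exactTest each called 2 as higher, *Neurod1* among them. The quasi-likelihood test called *Neurod1* as higher without wildtype replicate 5, without null replicate 4, in a robust fit and without a filter. *Pax6*, which drives *Gcg* in the pancreas and is the master regulator of the lens, was at 521 ± 91.6 CPM in wildtype and 499 ± 62.2 CPM in null lenses (log2 fold change -0.06, SE 0.15, adjusted p = 0.89). *Neurod1*, a factor of endocrine cells and neurons, was at 6.22 ± 1.78 and 16.8 ± 10.6 CPM (log2 fold change 1.43, SE 0.41, adjusted p = 0.061).

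Of 11 tested α-actinins and Z disc genes, 0 were called, with 4 at an unadjusted p below 0.05, 0 by DESeq2 and 1 (*Actn2*) by exactTest. The quasi-likelihood test also called *Actn2* as lower without null replicate 4, without wildtype replicate 2, with a minimum of 10 counts in every library and, with *Ldb3* and *Myot*, without a filter. *Actn2*, the other muscle α-actinin, was at 92.2, 52.9, 104, 65.9 and 184 CPM in wildtype and 34.1, 31.7, 42.1 and 70.2 CPM in null libraries (log2 fold change -1.17, SE 0.33, adjusted p = 0.0587). The highest of these values was in wildtype replicate 5, the muscle-rich library, and the part of its muscle transcripts was not tested. Of the forms of non-muscle cells, *Actn1* was at 127 ± 9.0 CPM in wildtype and 127 ± 8.9 CPM in null lenses (log2 fold change 0.01, SE 0.1) and *Actn4* at 199 ± 9.45 and 234 ± 13.2 CPM (log2 fold change 0.24, SE 0.1, adjusted p = 0.193). Per length, wildtype *Actn3* at 1.6 FPKM was the lowest of the 4, below *Actn2* at 9.24, *Actn1* at 15.6 and *Actn4* at 23.2 FPKM.

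Of 10 tested genes of serotonin synthesis, storage, breakdown and reception, 0 were called, with 2 at an unadjusted p below 0.05. These were *Slc6a4*, the serotonin transporter, and *Slc18a1*, a vesicular amine transporter, and DESeq2 and exactTest each called both. *Slc6a4* was at 5.98, 1.08, 3.95 and 4.51 CPM in null and 0, 1.36, 0.247, 0.127 and 0.535 CPM in wildtype libraries (log2 fold change 3.05, SE 0.9, adjusted p = 0.0662), so it was higher in 3 of the 4 null libraries than in any wildtype library. *Slc18a1* was at 1.76 ± 0.907 CPM in wildtype and 0.172 ± 0.199 CPM in null lenses (log2 fold change -3.23, SE 1.0, adjusted p = 0.0816). The enzyme of the next step of serotonin synthesis, *Ddc*, had 80 counts over the 9 libraries and was not tested, the brain form *Tph2* had 11 and none of them in null lenses, and *Maoa*, which breaks serotonin down, was at 18.4 ± 2.77 CPM in wildtype and 18.2 ± 2.87 CPM in null lenses. Of 6 tested anoctamins, 0 were called, with 1 at an unadjusted p below 0.05, and 0 by DESeq2 or exactTest. *Ano4*, the closest in coding sequence to *Ano3* at 68.6% identity, was at 1.3 ± 0.973 CPM in wildtype and 2.29 ± 1.21 CPM in null lenses (log2 fold change 0.82, SE 0.84, adjusted p = 0.67). *Ano10* was at 19.6 ± 4.74 and 28.7 ± 6.32 CPM (log2 fold change 0.55, SE 0.23, adjusted p = 0.19).

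**Figure D4:**
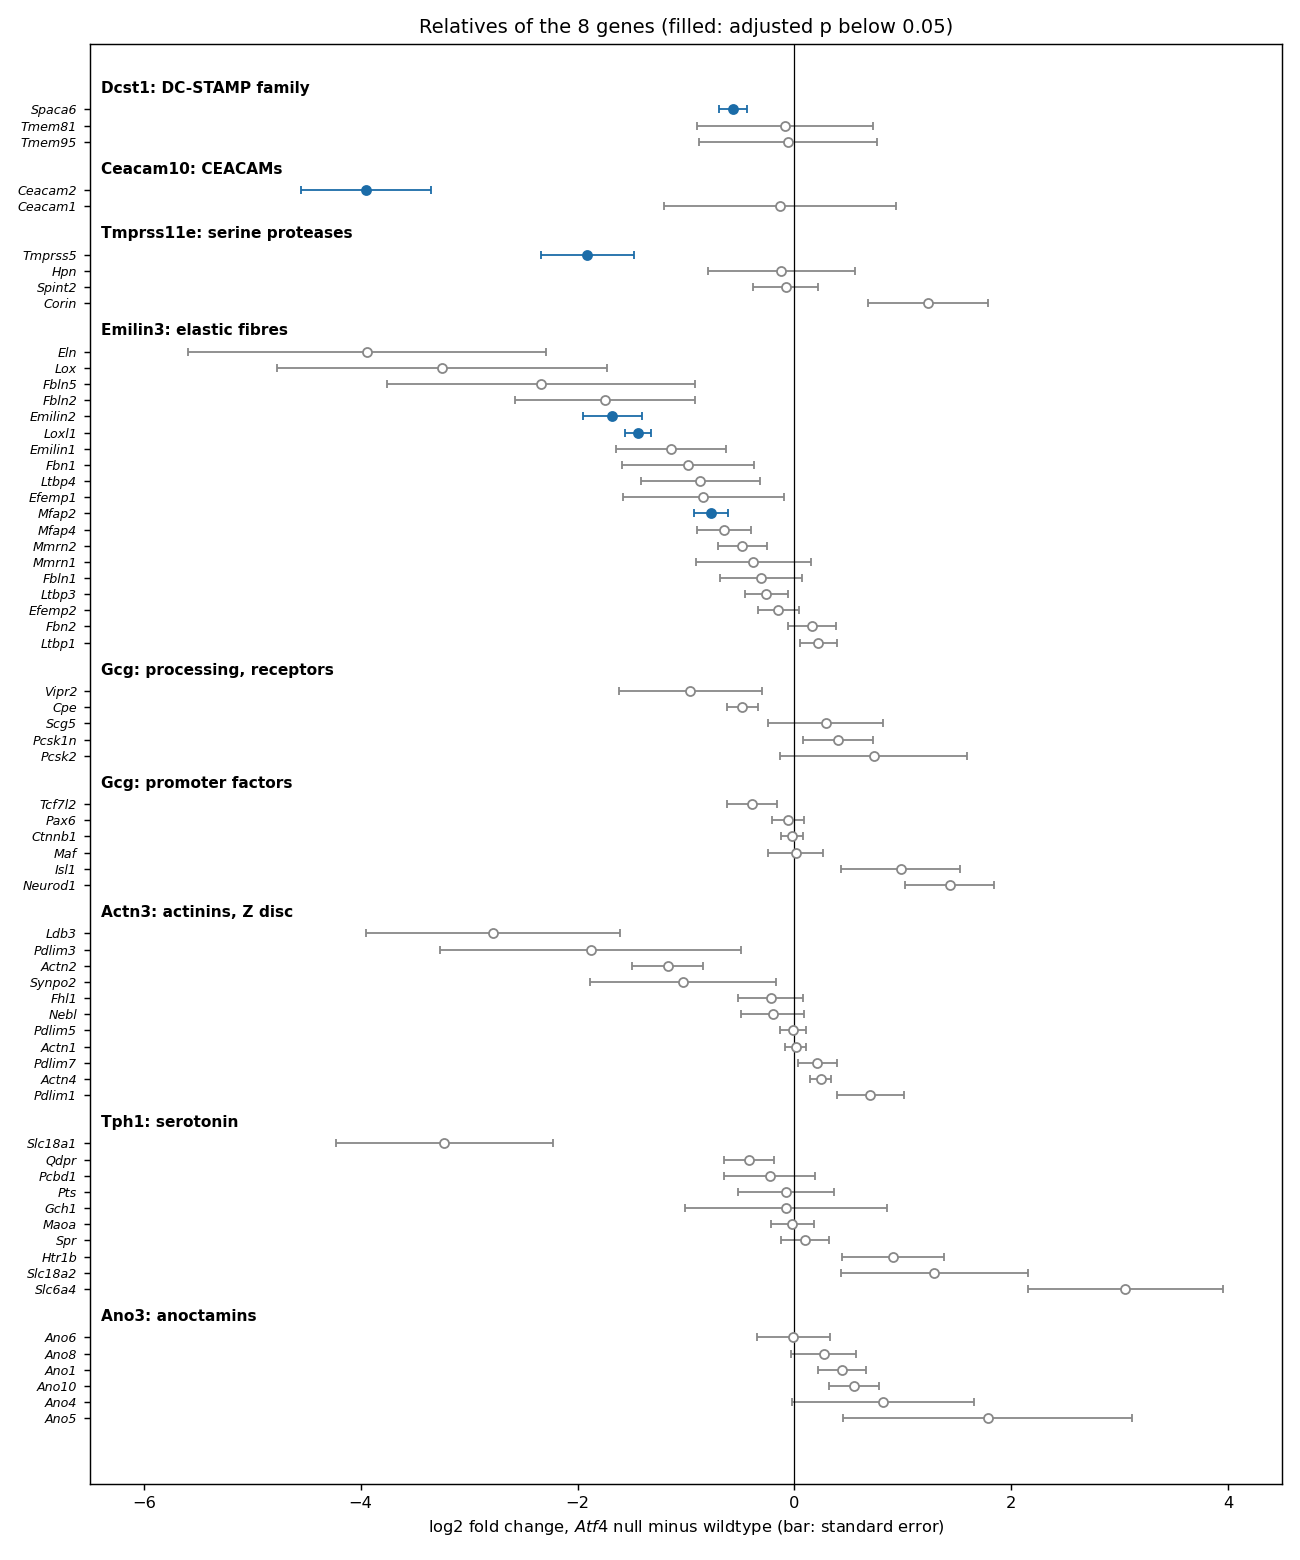
Log2 fold change, *Atf4* null minus wildtype (horizontal axis), of 66 of the 67 tested relatives, grouped by the gene they belong to, with bars for the standard error and filled points for an adjusted p below 0.05. The 6 filled points (*Ceacam2*, *Tmprss5*, *Emilin2*, *Loxl1*, *Mfap2* and *Spaca6*) all lie below 0, and the bars are wide for *Eln* and *Lox*, which are high in wildtype replicate 5.

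The position of a gene was not used to choose it, so the genes around each of the 8 were compared as well. Within 200 kb, 64 neighbours were tested, 0 higher and 4 lower (6.25%, against 5.9% of all genes). No tested gene lay within 200 kb of *Ano3*. *Ctsf*, a cathepsin whose gene overlaps *Actn3* on the opposite strand, was at 71.6 ± 7.48 CPM in wildtype and 49.0 ± 6.74 CPM in null lenses (log2 fold change -0.55, SE 0.14, adjusted p = 0.0352) and did not pass in 7 of 16 alternatives, each of which left out a library. The strand setting of the counting is not given in the sources used here, so reads in the overlap of *Ctsf* and *Actn3* may not be assignable to 1 of them.

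Near *Dcst1*, *Zbtb7b*, a zinc finger transcription factor 12382 bases away, was at 142 ± 33.8 CPM in wildtype and 47.9 ± 18.1 CPM in null lenses (log2 fold change -1.57, SE 0.24, adjusted p = 0.00196). *Efna1*, an ephrin ligand 69077 bases away, was at 13.7 ± 2.28 and 5.86 ± 1.16 CPM (log2 fold change -1.22, adjusted p = 0.0168), and its adjusted p was 0.051 to 0.0517 without null replicate 2, wildtype replicate 2 or wildtype replicate 4. *Adam15*, which begins 15 bases beyond the end of *Dcst1* on the same strand, did not pass (log2 fold change -0.39, SE 0.29, adjusted p = 0.524), with 120 to 286 counts in wildtype and 72 to 234 in null libraries. *Lpin3*, which overlaps *Emilin3* on the opposite strand, had 19, 0, 0 and 13 counts in null and 2, 0, 0, 3 and 0 in wildtype libraries, where *Emilin3* had 29, 24, 8 and 21 and at least 295. Reads in the overlap of *Lpin3* and *Emilin3* may likewise not be assignable to 1 of them, which bears on the low null counts of *Emilin3* and so on its ratio. *Muc15*, inside *Ano3* on the opposite strand, had 3 counts, all in wildtype replicate 5, so the *Ano3* counts of the null lenses came with no *Muc15* counts.

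**Figure D5:**
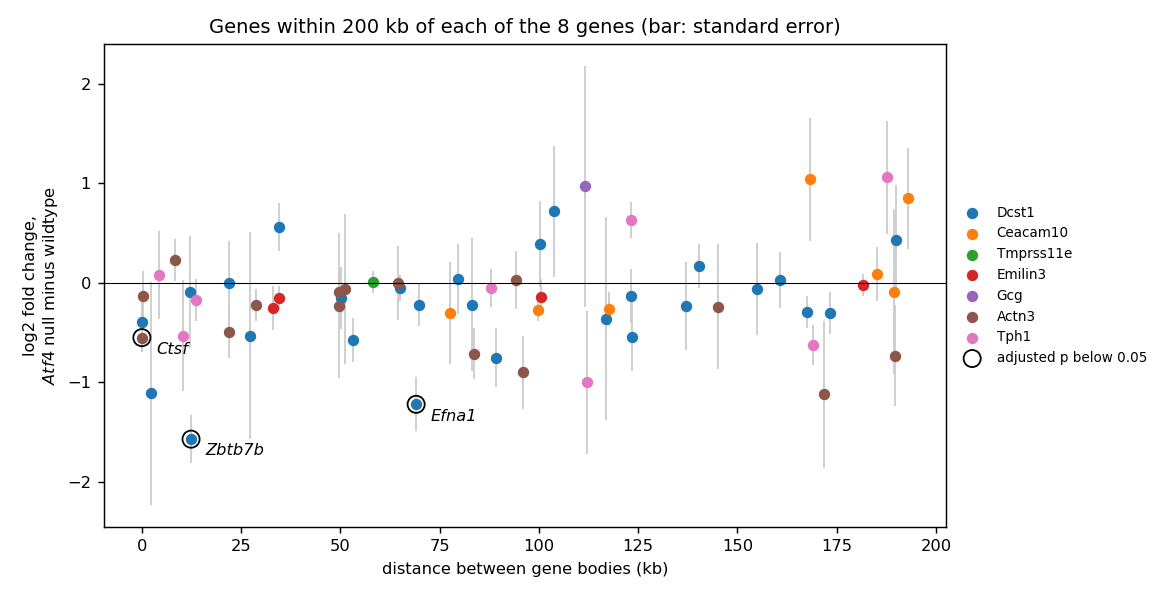
Log2 fold change, *Atf4* null minus wildtype (vertical axis, bars for the standard error), of 63 of the 64 tested genes within 200 kb of the 8 genes against distance in kb (horizontal axis), coloured by the gene they adjoin, with rings for an adjusted p below 0.05. The ringed genes are *Ctsf* near *Actn3* and *Zbtb7b* and *Efna1* near *Dcst1*, all below 0.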

How the data were processed

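Per the study's methods, the authors cleaned reads with Trim Galore, discarded ribosomal (RN45S) reads by a HISAT2 alignment and counted the remainder over GRCm39 genes with HTSeq. The deposited values were whole counts per gene without normalization. HTSeq's 5 summary entries, 44.56% to 47.725% of the reads of a library, were left out. Symbols and positions came from GENCODE vM39, and gene counts ran from 7440807 to 8906996 per library, all pairs of which differed by more than sampling noise (lowest chi-square per degree of freedom 7.74 over 36 pairs).

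After filterByExpr and TMM scaling, null and wildtype libraries were compared, without covariate, by the quasi-likelihood test of edgeR 4.0.16 in R 4.3.3, with Benjamini-Hochberg adjustment over 14903 genes and a threshold of 0.05. The procedure was tested on simulated data. FPKM divide CPM by summed exon length. Folds against a genotype with at most 3 counts in each library are lower bounds against 3 counts per library. Motifs and identities were computed in Python 3.11.15 with Biopython 1.88, and identity was taken over coding bases because protein sequences were not used here, a departure from the plan. The genes named are the 8, *Atf4*, called relatives and neighbours, closest paralogues, the 3 genes with the widest gap in each direction outside the 8, and 2 genes per profile (at least 45 counts in all). A few genes of these lists are not reported here. Other relatives and overlapping genes with values were named after these had been seen. The 8 genes and all lists were chosen with earlier results of these data known. Alternatives were DESeq2 1.42.0, exactTest, library size scaling, no filter, a minimum of 10 counts per library, a robust fit, a prior count of 2, a replicate block, a floor of 1 count, windows of 50 and 1000 kb, and each library left out.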

Additional observations from a re-analysis of the deposited data

Results flagged for a closer look

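Of 14 groups of libraries checked, 4 held a library far from the others by Dixon's criterion, which chance alone gives in about 1 in 20 groups of continuous values, and for 1 of the 4, *Ceacam10*, the counts fixed the outcome. For *Dcst1*, wildtype replicate 1 was at 14.0 CPM (109 counts) and the other 4 wildtype libraries at 3.58 to 5.06 CPM. For *Ceacam10*, null replicate 4 was at 0.146 CPM, which is 1 count, and the other null libraries at 0. A single count beside 3 zeros meets the criterion whatever its size. For *Emilin3*, wildtype replicate 5 was at 85.8 CPM and the other wildtype libraries at 37.3 to 48.4 CPM, and null replicate 3 was at 0.877 CPM (8 counts) and the other null libraries at 2.88 to 3.06 CPM. Wildtype replicate 5 is also the library in which mesenchyme markers summed to 14434 CPM. *Tph1* in null replicate 4, at 32.3 CPM, did not meet the criterion.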

How the results depend on the processing

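With library size scaling too, the genotypes did not overlap for any of the 8 genes. Leaving out a library cannot make ranges that are apart overlap, so those alternatives could not have shown otherwise. The number of genes called, 880, was 1397 with DESeq2, 852 with a replicate block and 527 (without null replicate 2) to 1207 (without wildtype replicate 5) as each library was left out. The 6 relatives called became 11 with DESeq2, 11 with exactTest, 14 without a filter, 7 with a replicate block and 5 to 9 with a library left out. The 4 neighbours called became 2 within 50 kb, 11 of 251 within 1000 kb (4.38%), 4 with a replicate block and 2 to 6 with a library left out, with 2 without null replicate 2, wildtype replicate 2 or wildtype replicate 4. The 24 genes with a gap above 4 became 22 with library size scaling, 31 with a floor of 1 count, 26 to 44 with a library left out, and 44 without wildtype replicate 5. With a prior count of 2, fitted log2 fold changes shrank to -4.79 for *Dcst1*, -4.85 for *Ceacam10*, 5.63 for *Tph1* and 4.58 for *Ano3*, which is why only bounds are given. Correlations of deviations between null and wildtype libraries of the same number were -0.131, -0.019, -0.023 and 0.008 for numbers 1 to 4. The deviations of no null replicate correlated best with those of the wildtype replicate of its own number. Since wildtype numbers are uncertain, these values cannot show whether libraries are paired in another way, such as by litter. Scaling by library size moved the median log2 fold change of all genes from 0.001 to 0.13 and the share of calls that were higher from 37.8% to 64.3%. No fitted log2 fold change of the 8 genes or of the called relatives and neighbours reversed. The median over the EMILIN and elastic fiber list, -0.84, turned to 0.22 without wildtype replicate 5. It turned to 0.21 with a replicate block, which takes the same library out of the contrast and is not a separate check. Of 159 values for called relatives and neighbours, 13 no longer passed, for *Ctsf*, *Efna1*, *Spaca6* and *Tmprss5*, and the cause was not tested. At this depth a count of 0 allows up to 0.356 CPM on average in null and 0.365 CPM in wildtype libraries, so absence below that level cannot be shown.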
